A study of Mus musculus with 15 samples.

Results

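The comparison described here sets hearts of mice given rivaroxaban, an oral inhibitor of coagulation factor Xa, against hearts labelled untreated. Its libraries are Riva-313 and Riva-319 on one side and Cont_17 and Cont_19 on the other, which makes 4 of the 11 libraries in the expression table. A gene was taken in when its level was at least 0 on the log2 scale of CPM (read counts scaled to a fixed library size) in at least 3 of the 11 libraries, and 13541 of the 16658 genes listed met that rule. All animals were male C57BL/6 mice of 8 to 10 weeks, and the tissue was heart muscle that held the infarct together with its surroundings. Rivaroxaban was given at 3 mg/kg for 7 days. Per the labels, the left anterior descending coronary artery was then tied for 90 min, blood flow was restored for 24 h, and the drug was started again 2 h after surgery. This operation is described a single time in the labels, with no word on which groups had it, and nothing beyond its name is assumed of the untreated group. For orientation, levels are also given in 3 sham libraries, 2 libraries of mice given the thrombin inhibitor dabigatran (10 mg/kg for 7 days) and 2 of mice given activated protein C (aPC, 1 mg/kg at 30 min before surgery). The remaining 4 samples that the labels list were not analysed here. Each library carries its own number and no label says more of its origin, so a p-value measures the spread between these libraries, which may be partly technical.

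Factor Xa turns prothrombin into thrombin, the protease that makes fibrin and activates platelets. Thrombin and factor Xa also cut protease-activated receptors on endothelial cells, fibroblasts, muscle cells and leukocytes, and these receptors act through G proteins. When a blocked coronary artery is reopened, injured muscle and endothelium make cytokines and chemokines, neutrophils arrive within hours and monocytes follow, and fibroblasts later rebuild the matrix.

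The 2 untreated libraries differed from each other more than any other pair. The standard deviation of their log2 difference over all tested genes was 0.79, against 0.31 for the rivaroxaban pair and 0.31 to 0.48 for pairs within the other groups. The limma fit used all 11 libraries and 1 shared estimate of the spread for each gene, so standard errors against the untreated pair run small. Fitted on the 4 rivaroxaban and untreated libraries alone, no gene passed at an adjusted p under 0.05 (limma), and 2287 had an unadjusted p under 0.05. Every call below therefore draws on the spread of the other groups. Heart muscle markers were high in all 4 libraries, with the cardiac myosin gene Myh6 at 14.90 and 14.80 in the rivaroxaban pair and 15.14 and 15.54 in the untreated pair, and of 12 markers of lung, liver and skeletal muscle only Ckm, a creatine kinase that heart muscle makes too, reached the level needed for testing. Because these are pieces of tissue, fewer cells of a type and less RNA per cell cannot be told apart.

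Between rivaroxaban and untreated hearts, 1147 of 13541 genes were called, meaning a limma adjusted p under 0.05 (Benjamini-Hochberg), which is 8.47% of those tested. Of these, 544 were higher with rivaroxaban (4.02%) and 603 were lower (4.45%), while the median log2 difference over all tested genes was 0.02. The median size of a called difference was 2.45-fold among the higher and 2.24-fold among the lower genes. In every called gene the pairs did not overlap, meaning that both rivaroxaban values lay on the same side of both untreated values. Such separation was common: 3802 genes were higher in that sense (28.1%) and 3712 lower (27.4%), together 55.5%. A gap of more than 1 on the log2 scale between the nearest values of the pairs was less so, with 270 genes higher (1.99%) and 244 lower (1.8%), and a gap over 2 was seen in 30 (0.222%) and 54 (0.399%). The count of calls was 43 without Riva-313, 112 without Riva-319, 5029 without Cont_17 and 651 without Cont_19. It was 685 without sham replicate 003 and 698 without sham replicate 006, and 37 when libraries were weighted by spread. Both libraries of a pair then had the same weight, so no single library of a pair was weighted down. No sign could turn in these fits, because the pairs of the 1147 called genes did not overlap. A fit without 1 rivaroxaban or untreated library leaves 1 library in that group, which then adds nothing to the shared estimate of the spread. Without Cont_17 or Cont_19 the wide spread of the untreated pair leaves that estimate. Calls kept in those fits, here and below, are therefore no check on the untreated pair.

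**Figure D1:**
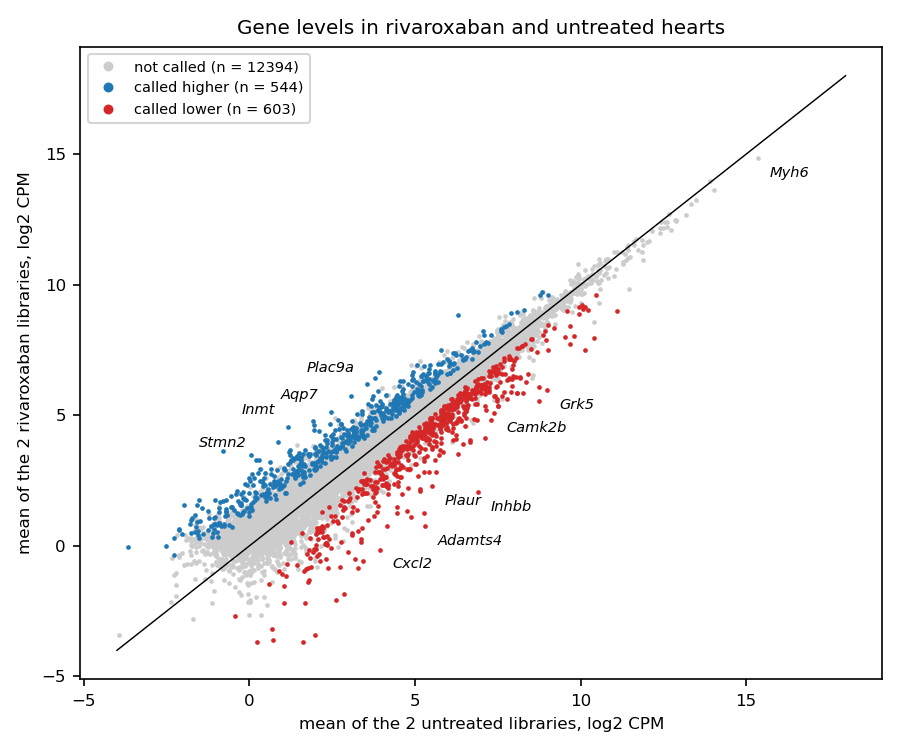
Each point is a tested gene, with its mean log2 CPM over the 2 untreated libraries on the x axis and over the 2 rivaroxaban libraries on the y axis; the line marks equal levels. The 544 genes called higher (blue) and the 603 called lower (red) lie on either side of the line, and Inhbb, Adamts4 and Cxcl2 lie far below it.

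Chemokines that draw neutrophils stood lower in rivaroxaban hearts, and 4 of the 5 tested members of that list fell, with none called higher. Their median log2 difference was -2.97. Cxcl2, which binds the neutrophil receptor Cxcr2, measured -0.51 and 0.21 in the rivaroxaban pair and 3.94 and 3.95 in the untreated pair, the first value of a pair being that of Riva-313 or Cont_17. It fell by 4.09 ± 0.49 (standard error) on the log2 scale (limma, adjusted p = 0.00288), and both rivaroxaban values were also under the sham range of 0.99 to 2.07. Its close relative Cxcl3 measured -1.67 and -0.02 in the rivaroxaban pair and 3.47 and 3.08 in the untreated pair and fell by 4.12 ± 0.67 (limma, adjusted p = 0.00865). Cxcl1, another ligand of that receptor, stood at 1.29 and 1.67 in the rivaroxaban pair and 3.72 and 5.19 in the untreated pair and fell by 2.97 ± 0.55 (limma, adjusted p = 0.0146). Epithelial and stromal cells make Cxcl5, which read 2.20 and 3.44 in the rivaroxaban pair and 4.97 and 5.89 in the untreated pair and fell by 2.61 ± 0.67 (limma, adjusted p = 0.0409). The dabigatran pair lay above the untreated pair in Cxcl2 and Cxcl3, at 4.28 and 4.32 and at 5.26 and 4.19, and the aPC pair of Cxcl2 lay at 1.96 and 0.42. The platelet chemokine Ppbp overlapped between the pairs, with a difference of -0.21 ± 0.86 that turned to 0.89 without Riva-313 and was -1.30 without Riva-319. The number of these 4 genes that stayed called was 1 without Riva-313, 2 without Riva-319, 4 without Cont_17 and 3 without Cont_19.

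Cxcl1, Cxcl2 and Cxcl3 lie near each other on chromosome 5 and moved together, so their promoters are shown. The sequences come from the RefSeq promoter table (build GRCm38.p6), which reaches from 250 bases before the annotated start site to 50 bases after it, and are written in the direction of the gene. Capitals mark every match to the consensus site of NF-kB, a transcription factor of inflammation, on either strand. Matches on opposite strands overlap in these genes and form 1 stretch, which begins 71 bases before the start site in Cxcl1, 97 in Cxcl2 and 73 in Cxcl3. The table held a promoter for 3 of the 4 called chemokines, and for Cxcl5 it held none.
Cxcl1 (chr5:90890995-90891294, plus strand): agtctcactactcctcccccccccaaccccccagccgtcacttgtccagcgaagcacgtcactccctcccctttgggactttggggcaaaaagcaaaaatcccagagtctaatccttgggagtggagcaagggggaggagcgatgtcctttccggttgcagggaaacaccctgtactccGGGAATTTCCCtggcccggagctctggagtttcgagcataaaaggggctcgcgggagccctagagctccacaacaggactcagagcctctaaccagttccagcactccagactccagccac
Cxcl2 (chr5:90903649-90903948, plus strand): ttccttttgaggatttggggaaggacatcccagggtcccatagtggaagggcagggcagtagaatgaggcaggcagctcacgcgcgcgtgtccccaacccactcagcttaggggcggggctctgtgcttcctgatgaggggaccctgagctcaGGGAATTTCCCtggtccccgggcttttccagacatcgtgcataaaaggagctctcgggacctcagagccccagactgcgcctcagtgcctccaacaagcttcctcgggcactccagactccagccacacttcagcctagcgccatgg
Cxcl3 (chr5:90785851-90786150, plus strand): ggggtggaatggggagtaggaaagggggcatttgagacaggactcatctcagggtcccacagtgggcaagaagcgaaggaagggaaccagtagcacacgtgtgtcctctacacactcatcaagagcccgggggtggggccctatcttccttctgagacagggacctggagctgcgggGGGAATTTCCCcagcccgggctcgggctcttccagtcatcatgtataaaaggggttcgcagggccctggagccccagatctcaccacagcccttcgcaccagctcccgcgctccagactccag
The same consensus occurs in 8.46% of the 32851 promoter windows of the table, and in at least 1 window of 9.55% of its 27025 genes. A match describes letters, not binding. A count over all called genes was not made, because 75.1% of the genes called lower and 73.5% of those called higher had a promoter in the table.

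Cytokines of the interleukin 6 family and genes they switch on were lower as well. Among interleukin 6 family genes and Stat3 targets, 11 of 18 tested genes fell and none rose, with a median log2 difference of -1.08. Il6 itself, the acute-phase cytokine, measured -1.67 and -0.02 in the rivaroxaban pair and 1.77 and 2.97 in the untreated pair and fell by 3.22 ± 0.76 (limma, adjusted p = 0.0305). Osm and Lif, relatives of Il6 that act on heart muscle and stroma, measured -0.83 and -0.85 in the rivaroxaban pair and 1.93 and 1.60 in the untreated pair and -1.02 and -0.78 in the rivaroxaban pair and 1.36 and 2.08 in the untreated pair, respectively, and fell by 2.61 ± 0.53 (adjusted p = 0.0207) and 2.62 ± 0.59 (adjusted p = 0.0277, limma). The receptor chains Il6ra and Osmr fell by 1.10 ± 0.23 and 1.02 ± 0.23, whereas the common signalling chain Il6st differed by 0.00 ± 0.13 (limma, adjusted p = 0.984), and by 0.16 without Cont_17 and -0.17 without Cont_19. Downstream of these receptors, Socs3, the feedback inhibitor that Stat3 induces, read 3.29 and 3.76 in the rivaroxaban pair and 6.02 and 6.60 in the untreated pair and fell by 2.79 ± 0.37 (limma, adjusted p = 0.00483). Stat3, the transcription factor itself, measured 7.92 and 7.84 in the rivaroxaban pair and 9.29 and 8.60 in the untreated pair and fell by 1.06 ± 0.24 (limma, adjusted p = 0.0277). The kinase gene Pim1 and the coregulator gene Bcl3, which are both Stat3 targets, fell by 1.04 ± 0.18 and 1.75 ± 0.27. Both rivaroxaban values of Socs3 lay under all 3 sham values, which ran from 4.45 to 4.73. Calls among these 11 genes held in 0 without Riva-313, 1 without Riva-319, 11 without Cont_17 and 6 without Cont_19.

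Of 14 tested genes of the interleukin 1 family and the inflammasome, 7 fell and none rose (50% called, against 8.47% of all tested genes). Il1b, a fever-inducing cytokine released by the inflammasome, measured 0.73 and 1.50 in the rivaroxaban pair and 2.62 and 2.95 in the untreated pair and fell by 1.67 ± 0.45 (limma, adjusted p = 0.0452). The decoy receptor Il1r2 stood at 0.08 and 1.45 in the rivaroxaban pair and 3.62 and 4.71 in the untreated pair and fell by 3.40 ± 0.70 (limma, adjusted p = 0.021). The receptor antagonist Il1rn and the inhibitory kinase Irak3, which both restrain the pathway, fell by 2.11 ± 0.47 and 1.26 ± 0.26, so activators and inhibitors moved the same way. Without Riva-313 the difference of Il1rn was -1.39. The sensor gene Nlrp3 fell by 1.50 ± 0.38, at 0.43 and 0.84 in the rivaroxaban pair and 1.87 and 2.39 in the untreated pair. Among 11 tested genes of the tumour necrosis factor family 2 fell and 1 rose (27.3% called, against 8.47% of all tested genes). The receptors Tnfrsf1a and Tnfrsf10b fell by 1.16 ± 0.26 and 1.32 ± 0.21, and the death ligand Tnfsf10 rose by 1.89 ± 0.49 (limma, adjusted p = 0.0413). Without Cont_19 the difference of Tnfsf10 was 1.05. Tnf was low in all 4 libraries, at -1.38 and -1.76 in the rivaroxaban pair and 0.15 and -1.03 in the untreated pair, and was not called (difference -1.13 ± 0.56, limma adjusted p = 0.205), and its difference was -0.54 without Cont_17 and -1.72 without Cont_19. When Riva-313 was left out 0 of these 10 called genes kept their call, and 1 did so without Riva-319, 10 without Cont_17 and 2 without Cont_19.

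Receptors of interleukin 1 and tumour necrosis factor signal to NF-kB, and 8 of 16 tested genes for its subunits and feedback inhibitors fell, with none called higher and a median log2 difference of -0.84. In 12 of the 16 genes the rivaroxaban pair lay under the untreated pair (against 27.4% of all tested genes). Birc3, an inhibitor of cell death that NF-kB induces, read 4.22 and 4.40 in the rivaroxaban pair and 5.38 and 5.55 in the untreated pair and fell by 1.16 ± 0.16 (limma, adjusted p = 0.00539). Nfkbiz, a nuclear cofactor needed for secondary response genes, stood at 2.97 and 3.32 in the rivaroxaban pair and 4.69 and 5.34 in the untreated pair and fell by 1.87 ± 0.26 (limma, adjusted p = 0.00545). Tnfaip3, the ubiquitin-editing enzyme that shuts the pathway off, measured 2.39 and 2.28 in the rivaroxaban pair and 4.61 and 3.74 in the untreated pair and fell by 1.84 ± 0.32 (limma, adjusted p = 0.0115). The subunits Rela and Relb fell by 0.66 ± 0.13 and 0.96 ± 0.18, and Nfkbia, the inhibitor that holds Rela in the cytoplasm, fell by 1.18 ± 0.23. Nfkb1 and Nfkb2, which encode the precursor subunits, were not called, with differences of -0.18 ± 0.12 and -0.30 ± 0.24. Without Cont_17 that of Nfkb2 turned to 0.14, and without Cont_19 it was -0.74 and called (limma, adjusted p = 0.0304). Of the 8 called genes of this list 6 had a promoter in the RefSeq table, and in 3 of them (Tnfaip3, Nfkbia and Bcl3) a window held a match to the NF-kB consensus, while Rela, Nfkbib and Birc3 held none. Of the 2 windows of Tnfaip3, 1 holds NF-kB consensus matches in 2 stretches, the nearer of them ending 3 bases before the start site, and is shown with them in capitals.
Tnfaip3 (chr10:19015361-19015660, minus strand): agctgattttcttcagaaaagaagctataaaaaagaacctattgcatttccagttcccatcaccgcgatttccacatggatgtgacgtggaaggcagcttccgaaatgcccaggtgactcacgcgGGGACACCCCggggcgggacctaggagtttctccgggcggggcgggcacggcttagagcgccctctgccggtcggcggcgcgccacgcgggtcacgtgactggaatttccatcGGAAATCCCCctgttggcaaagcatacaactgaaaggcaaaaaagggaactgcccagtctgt
Among the 8 called genes of these groups, 0 kept their call when Riva-313 was left out, 2 when Riva-319, 8 when Cont_17 and 5 when Cont_19 was left out.

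Transcripts of neutrophils and of the adhesion molecules they roll on were lower with rivaroxaban. Of 17 tested neutrophil markers 12 fell and none rose, and the median log2 difference was -2.84. The alarmin genes S100a8 and S100a9, a large part of the soluble protein of neutrophils, measured 1.37 and 2.57 in the rivaroxaban pair and 4.30 and 4.88 in the untreated pair and 1.78 and 2.56 in the rivaroxaban pair and 4.81 and 5.47 in the untreated pair, respectively, and fell by 2.62 ± 0.55 (adjusted p = 0.0227) and 2.97 ± 0.57 (adjusted p = 0.0173, limma). The granule gene Ngp measured -2.87 and -3.93 in the rivaroxaban pair and 2.12 and 1.83 in the untreated pair, where the value of Riva-319 is the lowest of the table and stands for no read, and it fell by 5.38 ± 0.96 (limma, adjusted p = 0.013). Sham values of Ngp were as low, from -3.32 to -2.44. Trem1, a receptor that amplifies neutrophil activation, read -0.74 and -0.30 in the rivaroxaban pair and 1.59 and 3.04 in the untreated pair and fell by 2.84 ± 0.58 (limma, adjusted p = 0.021). Summed over the list, neutrophil markers came to 276.4 and 246.5 CPM in the rivaroxaban pair, 1032 and 474.2 in the untreated pair and 169.7 to 201.2 in sham. Of these 12 called genes, 0 stayed called without Riva-313, 3 without Riva-319, 12 without Cont_17 and 2 without Cont_19.

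On the endothelial side, Sele and Selp, the selectins that slow leukocytes on the vessel wall, both fell. Sele stood at 0.13 and 0.84 in the rivaroxaban pair and 3.31 and 2.89 in the untreated pair and fell by 2.61 ± 0.32 (limma, adjusted p = 0.00302). Selp measured 0.18 and 0.95 in the rivaroxaban pair and 3.29 and 3.27 in the untreated pair and fell by 2.71 ± 0.45 (limma, adjusted p = 0.00928). The rivaroxaban values of Sele were under the sham range of 1.63 to 1.88. Icam1, a ligand for leukocyte integrins, differed by -1.60 ± 0.47 and was not called (limma, adjusted p = 0.0617), nor was Vcam1 at -0.16 ± 0.26. The difference of Icam1 was -0.66 without Cont_17 and -2.54 without Cont_19, where limma called it (adjusted p = 0.00249), and that of Vcam1 turned to 0.25 without Cont_17 and was -0.57 without Cont_19. These 2 selectins were the called genes among 12 tested adhesion molecules (16.7%, against 8.47% of all tested genes), whose median log2 difference was -0.16. The number of these 2 genes that stayed called was 1 without Riva-313, 2 without Riva-319, 2 without Cont_17 and 2 without Cont_19.

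**Figure D2:**
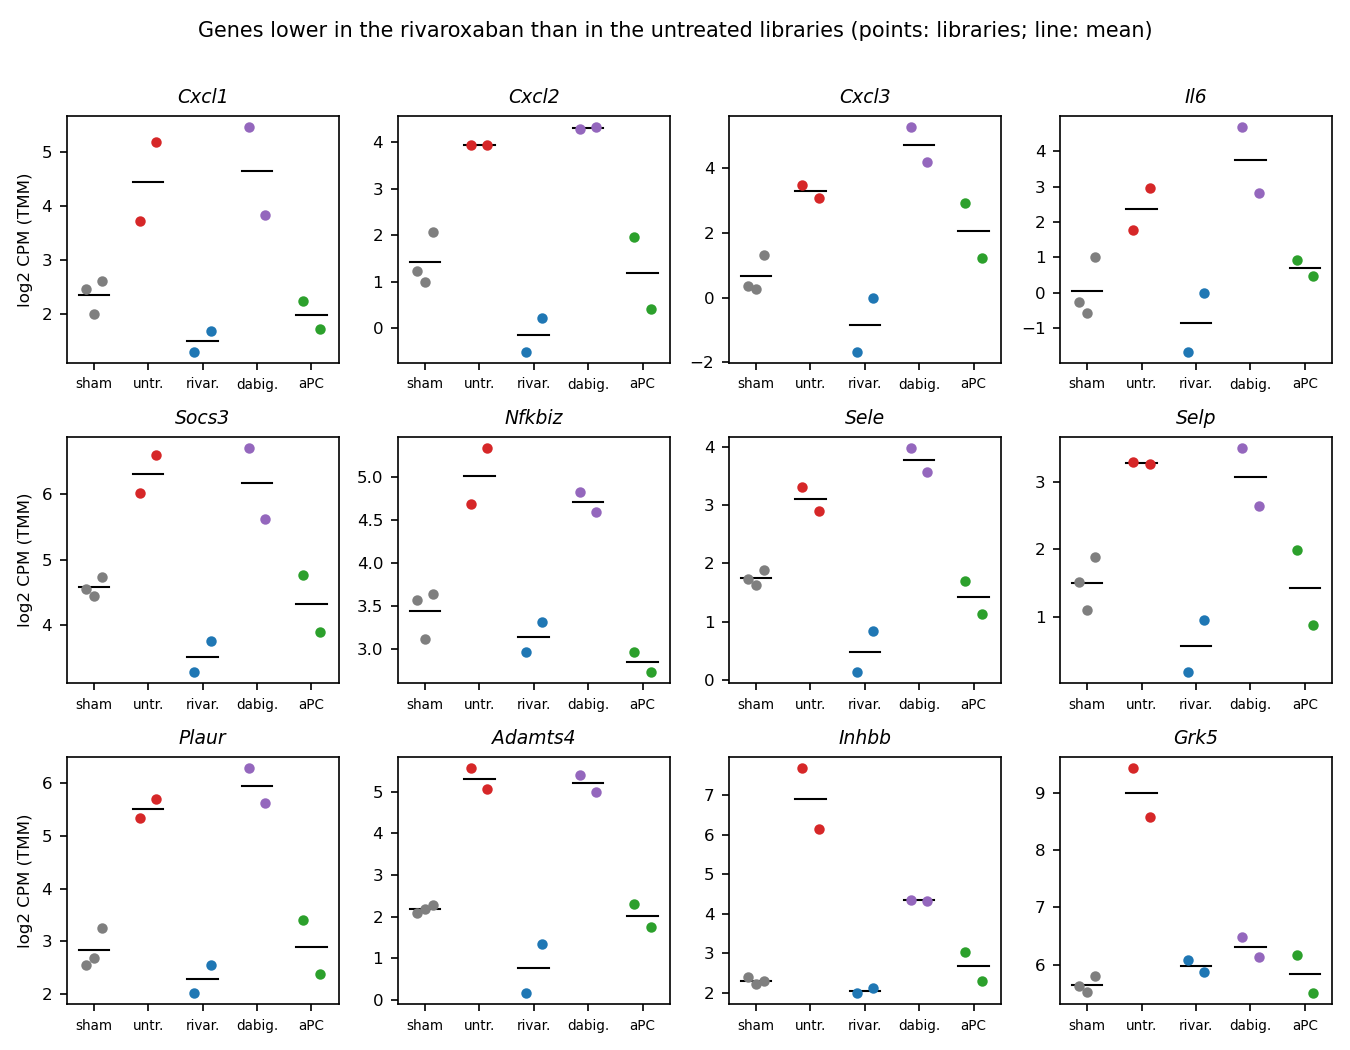
Levels in log2 CPM (y axes) of 12 genes in sham (3 libraries), untreated, rivaroxaban, dabigatran and aPC hearts (2 each); points are libraries and lines are group means. The rivaroxaban points lie below both untreated points in every panel, and for Grk5 they lie near the other groups while the untreated points stand alone at 9.43 and 8.57.

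Macrophage markers were called in both directions. Among 18 markers of monocytes and recruited macrophages 5 fell and 1 rose. Itgam, an integrin of myeloid cells, read 4.76 and 5.03 in the rivaroxaban pair and 6.62 and 6.05 in the untreated pair and fell by 1.44 ± 0.24 (limma, adjusted p = 0.00926). Cd14, the endotoxin coreceptor, measured 2.51 and 2.77 in the rivaroxaban pair and 4.23 and 4.88 in the untreated pair and fell by 1.91 ± 0.30 (limma, adjusted p = 0.00743). The proteoglycan gene Vcan and the matricellular gene Thbs1, which stroma also makes, fell by 1.07 ± 0.16 and 2.98 ± 0.43, and Clec4e, a receptor for fungal and mycobacterial glycolipids, fell by 2.16 ± 0.48. Without Riva-313 the difference of Clec4e was -1.37. Ccr2, the chemokine receptor of inflammatory monocytes, went the other way and stood at 3.23 and 4.19 in the rivaroxaban pair and 2.19 and 2.27 in the untreated pair, a rise of 1.48 ± 0.34 (limma, adjusted p = 0.0299). Calls among these 6 genes held in 1 without Riva-313, 4 without Riva-319, 6 without Cont_17 and 4 without Cont_19.

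Resident macrophage markers were higher in 5 of 19 tested genes and lower in none. Cbr2, a carbonyl reductase that marks them, stood at 4.58 and 4.32 in the rivaroxaban pair and 2.92 and 2.95 in the untreated pair and rose by 1.51 ± 0.19 (limma, adjusted p = 0.00345). Fcrls, a marker of tissue macrophages, read 3.03 and 2.87 in the rivaroxaban pair and -0.26 and 0.87 in the untreated pair and rose by 2.64 ± 0.43 (limma, adjusted p = 0.00926). Vsig4, a complement receptor of tissue macrophages, measured 1.92 and 1.59 in the rivaroxaban pair and -0.21 and -0.02 in the untreated pair and rose by 1.88 ± 0.31 (limma, adjusted p = 0.00926). Csf1r, the receptor macrophages need to survive, rose by 0.83 ± 0.18, at 6.01 and 5.78 in the rivaroxaban pair and 5.13 and 5.02 in the untreated pair, and Adgre1, the gene of the F4/80 antigen, rose by 1.15 ± 0.27, or by 0.68 without Cont_19. Sham values of Fcrls ran from 3.35 to 4.10 and those of Vsig4 from 1.87 to 2.62, so that the rivaroxaban pair lay nearer to sham than the untreated pair did. Mrc1, Cd163 and Lyve1, further resident macrophage genes, were not called, with differences of -0.07 ± 0.27, -0.22 ± 0.38 and -0.54 ± 0.29. Without Cont_17 those of Mrc1 and Cd163 turned to 0.42 and 0.29, and without Cont_19 they were -0.56 and -0.74. Genes of antigen presentation by MHC class II had 2 of 9 members called higher (22.2%, against 8.47% of all tested genes). H2-DMb1, at 2.17 and 2.45 in the rivaroxaban pair and 0.34 and 0.46 in the untreated pair, rose by 1.91 ± 0.27. H2-DMb2, at 0.54 and 0.79 in the rivaroxaban pair and -0.76 and -1.38 in the untreated pair, rose by 1.74 ± 0.35. Both encode chains of the peptide loader. The class II chains H2-Ab1, H2-Aa and H2-Eb1 were not called. Of 7 B cell markers 2 rose and none fell (28.6% called). The antibody heavy chain gene Ighm and the kinase gene Blk rose by 1.92 ± 0.47 and 2.06 ± 0.52, and without Cont_19 the difference of Blk was 1.31. When Riva-313 was left out 0 of these 9 called genes kept their call, and 1 did so without Riva-319, 9 without Cont_17 and 5 without Cont_19.

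The coagulation system holds the protease that rivaroxaban blocks. None of 10 tested genes for coagulation factors and their inhibitors was called by limma, and 3 had an unadjusted p under 0.05. Over all tested genes 8.47% were called, and this list is too short to be told from that share. F3, which encodes tissue factor, the trigger of coagulation, measured 4.46 and 4.06 in the rivaroxaban pair and 3.33 and 3.82 in the untreated pair, a difference of 0.68 ± 0.25 (limma, adjusted p = 0.105). F10, the gene of factor X, stood at -0.37 and 1.31 in the rivaroxaban pair and 2.51 and 1.51 in the untreated pair, a difference of -1.54 ± 0.60 (limma, adjusted p = 0.123). That of F10 was -0.70 without Riva-313 and -2.38 without Riva-319, and that of F3 was 0.44 without Cont_17. Among 8 tested genes of thrombin receptors and the protein C pathway 2 fell (25%, against 8.47% of all tested genes). F2r, the main thrombin receptor of stroma and endothelium in the mouse heart, read 4.81 and 5.11 in the rivaroxaban pair and 5.59 and 6.05 in the untreated pair and fell by 0.86 ± 0.19 (limma, adjusted p = 0.0277). Gna13, a G protein subunit through which it acts on the cytoskeleton, stood at 5.25 and 5.24 in the rivaroxaban pair and 5.83 and 6.31 in the untreated pair and fell by 0.83 ± 0.19 (limma, adjusted p = 0.0277). Thbd, which encodes thrombomodulin, read 6.38 and 6.38 in the rivaroxaban pair and 7.43 and 7.38 in the untreated pair with no overlap, yet its difference of -1.02 ± 0.33 was not called (limma, adjusted p = 0.0804). Procr, the endothelial protein C receptor gene, differed by -0.34 ± 0.39 (limma, adjusted p = 0.585), or by -0.21 without Riva-313. Among the 2 called genes of these groups, 0 kept their call when Riva-313 was left out, 0 when Riva-319, 2 when Cont_17 and 0 when Cont_19 was left out.

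In the fibrinolytic system, which dissolves fibrin, 2 of 8 tested genes fell and none rose (25% called, against 8.47% of all tested genes). Plaur, the receptor that holds urokinase at the surface of myeloid and endothelial cells, measured 2.03 and 2.54 in the rivaroxaban pair and 5.33 and 5.70 in the untreated pair and fell by 3.23 ± 0.37 (limma, adjusted p = 0.00265). Its gap between the pairs was 2.79, and the sham values ran from 2.56 to 3.25. Plat, which encodes tissue plasminogen activator, read 4.49 and 4.93 in the rivaroxaban pair and 5.28 and 5.76 in the untreated pair and fell by 0.81 ± 0.22 (limma, adjusted p = 0.0458). Of the called genes of this list the table held a promoter for Plaur alone, which is shown for its single AP-1 stretch, 69 to 63 bases before the start site, in capitals. AP-1, the dimer of Fos and Jun proteins described next, was searched as TGACTCA and TGAGTCA, which are the reverse complement of each other, and 5.2% of all windows hold a match.
Plaur (chr7:24462233-24462532, plus strand): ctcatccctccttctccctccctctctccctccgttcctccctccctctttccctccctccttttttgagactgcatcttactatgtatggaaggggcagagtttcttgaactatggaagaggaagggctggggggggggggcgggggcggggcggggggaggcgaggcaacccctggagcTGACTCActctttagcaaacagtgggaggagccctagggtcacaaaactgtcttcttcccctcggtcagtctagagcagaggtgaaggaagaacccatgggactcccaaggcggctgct
Of these 2 called genes, 1 stayed called without Riva-313, 1 without Riva-319, 2 without Cont_17 and 1 without Cont_19.

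Immediate-early genes, which encode transcription factors switched on within minutes of a stimulus, were lower with rivaroxaban in 10 of 22 tested genes and higher in none. In 20 of the 22 the rivaroxaban pair lay below the untreated pair (against 27.4% of all tested genes), and the median log2 difference was -1.17. Maff, a small partner of AP-1 factors, read 3.36 and 3.59 in the rivaroxaban pair and 5.58 and 5.86 in the untreated pair and fell by 2.25 ± 0.31 (limma, adjusted p = 0.00536). Fosl2 and Junb, AP-1 subunits, measured 5.14 and 5.25 in the rivaroxaban pair and 6.95 and 7.34 in the untreated pair and 4.61 and 5.02 in the rivaroxaban pair and 6.60 and 6.20 in the untreated pair, respectively, and fell by 1.95 ± 0.33 (adjusted p = 0.0101) and 1.59 ± 0.30 (adjusted p = 0.016, limma). Myc, the growth regulator, stood at 2.63 and 3.25 in the rivaroxaban pair and 4.67 and 4.96 in the untreated pair and fell by 1.87 ± 0.36 (limma, adjusted p = 0.0173). The classical members Fos and Egr1 had differences of -1.74 ± 0.53 and -1.08 ± 0.38 and were not called, and Jun differed by -0.30 ± 0.30, or by -0.15 without Cont_19. Among 14 feedback inhibitors of MAP kinase signalling 3 fell and none rose: Spry4, at 3.86 and 4.04 in the rivaroxaban pair and 6.20 and 5.37 in the untreated pair, fell by 1.84 ± 0.25, and the phosphatase genes Dusp5 and Dusp2 fell by 1.68 ± 0.32 and 2.05 ± 0.56. The number of these 13 genes that stayed called was 0 without Riva-313, 3 without Riva-319, 13 without Cont_17 and 7 without Cont_19.

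Inhbb, which encodes the beta B chain of activin, had the widest gap of the called genes whose mean over the 4 libraries was at least 1, predicted genes left out. It measured 2.00 and 2.11 in the rivaroxaban pair and 7.68 and 6.14 in the untreated pair, a gap of 4.03, and fell by 4.85 ± 0.41 (limma, adjusted p = 0.000611). Sham values ran from 2.22 to 2.39, and the dabigatran pair lay between, at 4.35 and 4.32. Of 25 tested genes of activin, TGF beta and BMP signalling 7 fell and none rose. Tgfbr2, the type II receptor of TGF beta, read 6.70 and 6.53 in the rivaroxaban pair and 7.47 and 7.48 in the untreated pair and fell by 0.86 ± 0.16 (limma, adjusted p = 0.0169), and the inhibitory Smad gene Smad6 and the activin antagonist gene Fstl3 fell by 1.29 ± 0.29 and 1.40 ± 0.30. The ligand genes Tgfb1 and Tgfb3 were not called, with differences of -0.14 ± 0.26 and 0.18 ± 0.19, and that of Tgfb1 was 0.36 without Cont_17 and -0.63 without Cont_19. Calls among these 7 genes held in 1 without Riva-313, 1 without Riva-319, 7 without Cont_17 and 2 without Cont_19.

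Among 24 growth factors and receptors 2 fell and 2 rose (16.7% called, against 8.47% of all tested genes). Ereg, a ligand of the epidermal growth factor receptor, stood at -1.67 and -2.72 in the rivaroxaban pair and 1.39 and 1.98 in the untreated pair and fell by 3.88 ± 0.69 (limma, adjusted p = 0.0125). Hbegf, another such ligand, was spread widely in the untreated pair, at 3.79 and 4.18 in the rivaroxaban pair and 5.11 and 8.24 in the untreated pair, and fell by 2.69 ± 0.73 (limma, adjusted p = 0.0485). Its difference was -1.12 without Cont_19 and -4.25 without Cont_17. Fgf16, a growth factor of heart muscle, measured 4.37 and 4.10 in the rivaroxaban pair and 2.38 and 2.21 in the untreated pair and rose by 1.94 ± 0.35 (limma, adjusted p = 0.013). Vegfc, which drives the growth of lymphatic vessels, rose by 0.87 ± 0.20. When Riva-313 was left out 0 of these 4 called genes kept their call, and 0 did so without Riva-319, 4 without Cont_17 and 3 without Cont_19.

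Matrix genes were called in both directions. Of 16 tested proteases and protease inhibitors of the matrix 6 fell and none rose. Adamts4, which cleaves the proteoglycans aggrecan and versican, read 0.18 and 1.34 in the rivaroxaban pair and 5.57 and 5.06 in the untreated pair and fell by 4.56 ± 0.36 (limma, adjusted p = 0.00057). Adamts1 and Adamts9, which cut versican too, measured 5.70 and 5.98 in the rivaroxaban pair and 7.85 and 8.31 in the untreated pair and 4.77 and 4.89 in the rivaroxaban pair and 7.75 and 6.81 in the untreated pair, respectively, and fell by 2.23 ± 0.22 (adjusted p = 0.00141) and 2.45 ± 0.31 (adjusted p = 0.00345, limma). Mmp14, a membrane-bound collagenase, fell by 0.81 ± 0.17. Lox, which crosslinks collagen and elastin, stood at 3.22 and 3.38 in the rivaroxaban pair and 5.16 and 6.06 in the untreated pair and fell by 2.31 ± 0.38 (limma, adjusted p = 0.0094). Among the 7 called genes of these groups, 2 kept their call when Riva-313 was left out, 5 when Riva-319, 7 when Cont_17 and 5 when Cont_19 was left out.

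Of 17 tested collagen genes 6 rose and 2 fell, and in 13 the rivaroxaban pair lay above the untreated pair (against 28.1% of all tested genes). The 2 that fell, Col4a1 and Col4a2, encode chains of basement membrane collagen and share a promoter region. They measured 8.90 and 9.18 in the rivaroxaban pair and 10.08 and 10.39 in the untreated pair and 8.94 and 9.19 in the rivaroxaban pair and 10.09 and 10.04 in the untreated pair, respectively, and fell by 1.20 ± 0.15 (adjusted p = 0.0032) and 1.01 ± 0.14 (adjusted p = 0.00536, limma). Col3a1, a fibrillar collagen of stroma, read 8.70 and 8.97 in the rivaroxaban pair and 6.75 and 5.83 in the untreated pair and rose by 2.55 ± 0.55 (limma, adjusted p = 0.0254). Its untreated values were below those of sham, which ran from 8.50 to 9.43. Col6a2, a chain of microfibrillar collagen, stood at 6.97 and 7.00 in the rivaroxaban pair and 5.69 and 5.85 in the untreated pair and rose by 1.21 ± 0.24 (limma, adjusted p = 0.0188). Col1a1, Col5a1, Col6a1 and Col16a1 rose by 1.71 ± 0.43, 1.45 ± 0.36, 1.27 ± 0.29 and 1.08 ± 0.28. Of these 8 called genes, 0 stayed called without Riva-313, 2 without Riva-319, 8 without Cont_17 and 4 without Cont_19.

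Called genes of fibroblast and smooth muscle identity were all higher with rivaroxaban. Of 15 tested fibroblast genes 4 rose and none fell. Clec3b, a plasminogen-binding protein of fibroblasts, measured 5.78 and 5.80 in the rivaroxaban pair and 3.98 and 4.29 in the untreated pair and rose by 1.66 ± 0.24 (limma, adjusted p = 0.00599). Inmt, a methyltransferase, read 4.69 and 4.45 in the rivaroxaban pair and 0.81 and 1.51 in the untreated pair and rose by 3.41 ± 0.61 (limma, adjusted p = 0.0128), and its rivaroxaban values were above all sham values, 2.31 to 3.48. Pi16 and Cd248, markers of adventitial and perivascular fibroblasts, rose by 1.30 ± 0.28 and 1.41 ± 0.28. Dcn and Pdgfra, genes of the whole fibroblast class, were not called and differed by 0.01 ± 0.16 and -0.46 ± 0.26. Their differences were -0.13 and -0.71 without Cont_17 and 0.16 and -0.20 without Cont_19. Of 14 smooth muscle and pericyte markers 3 rose and none fell. The smooth muscle myosin gene Myh11 stood at 6.52 and 6.86 in the rivaroxaban pair and 5.29 and 5.93 in the untreated pair and rose by 1.08 ± 0.25, calponin (Cnn1), which binds actin in smooth muscle, rose by 1.82 ± 0.49, and the pericyte gene Rgs5 rose by 0.59 ± 0.14. The number of these 7 genes that stayed called was 0 without Riva-313, 0 without Riva-319, 6 without Cont_17 and 6 without Cont_19.

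Among 18 endothelial genes 3 rose and 3 fell. Aplnr, the apelin receptor, read 4.58 and 5.0 in the rivaroxaban pair and 1.95 and 1.90 in the untreated pair and rose by 2.87 ± 0.49 (limma, adjusted p = 0.0111), while its ligand gene Apln fell by 1.36 ± 0.36 (limma, adjusted p = 0.042). Tek, the angiopoietin receptor, measured 6.72 and 6.62 in the rivaroxaban pair and 5.98 and 5.60 in the untreated pair and rose by 0.88 ± 0.17 (limma, adjusted p = 0.0187), and its relative Tie1 rose by 0.65 ± 0.17. Cldn5, a tight junction protein, stood at 4.51 and 5.18 in the rivaroxaban pair and 7.15 and 6.42 in the untreated pair and fell by 1.94 ± 0.33 (limma, adjusted p = 0.0101), with sham at 4.38 to 4.74. The adhesion molecule gene Esam fell by 0.65 ± 0.14. Pecam1 and Cdh5, general endothelial markers, were not called and differed by -0.34 ± 0.13 and -0.42 ± 0.14. Without Cont_17 the difference of Cdh5 was -0.59 and called (limma, adjusted p = 0.00859), and without Cont_19 it was -0.25. The epicardial factor Wt1 read 2.74 and 3.13 in the rivaroxaban pair and 4.81 and 4.88 in the untreated pair and fell by 1.91 ± 0.33 (limma, adjusted p = 0.0115). It was the 1 called gene of 6 epicardial and mesothelial markers (16.7%, against 8.47% of all tested genes). Calls among these 7 genes held in 0 without Riva-313, 1 without Riva-319, 6 without Cont_17 and 4 without Cont_19.

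**Figure D3:**
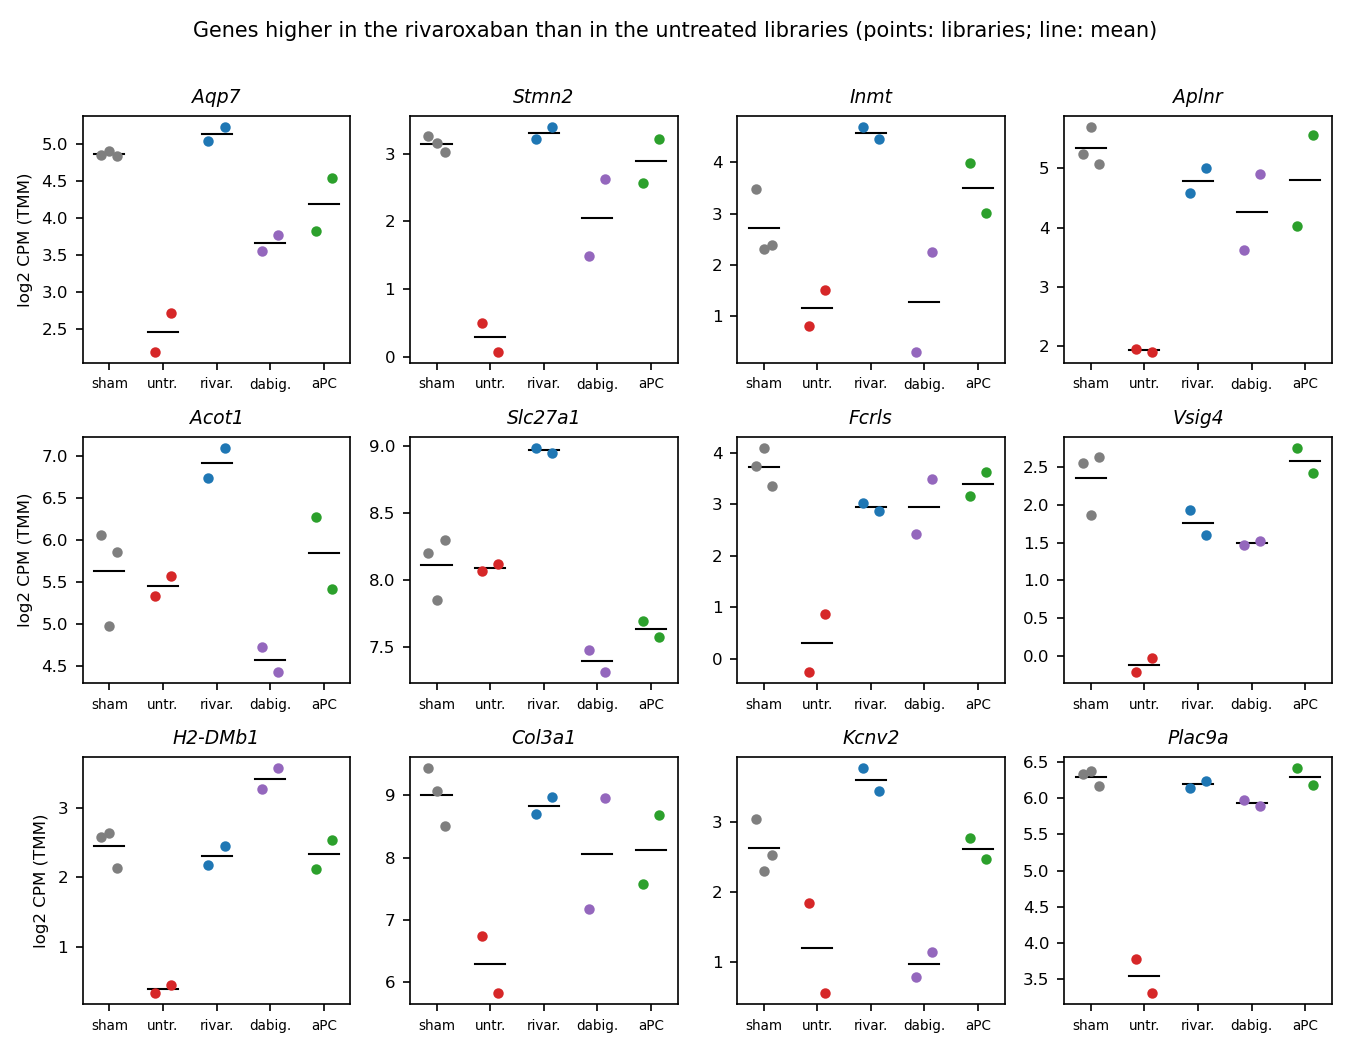
Levels in log2 CPM (y axes) of 12 genes in sham (3 libraries), untreated, rivaroxaban, dabigatran and aPC hearts (2 each); points are libraries and lines are group means. Both rivaroxaban points lie above both untreated points in every panel, and for Plac9a the untreated points at 3.78 and 3.31 lie below those of every other group.

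Of 21 tested genes of G protein-coupled receptor and adrenergic signalling 4 fell and 2 rose (28.6% called, against 8.47% of all tested genes). Of 14 tested calcium handling genes only Camk2b was called (7.14%). Grk5, a kinase that switches off adrenergic receptors, measured 6.08 and 5.87 in the rivaroxaban pair and 9.43 and 8.57 in the untreated pair and fell by 3.02 ± 0.28 (limma, adjusted p = 0.000998). Camk2b, a calcium-dependent kinase, read 5.11 and 5.06 in the rivaroxaban pair and 7.48 and 7.28 in the untreated pair and fell by 2.29 ± 0.23 (limma, adjusted p = 0.00141). In both genes the untreated pair stood apart from all 9 other libraries, with sham at 5.52 to 5.80 and 4.32 to 4.95 and dabigatran at 6.48 and 6.14 and 4.55 and 4.81. Grk3, of the same kinase family, the endothelin receptor gene Ednrb and the phosphodiesterase gene Pde4b fell by 1.26 ± 0.15, 1.62 ± 0.23 and 1.18 ± 0.24. Agtr1a, the angiotensin receptor, stood at 5.77 and 5.53 in the rivaroxaban pair and 4.78 and 4.54 in the untreated pair and rose by 0.99 ± 0.19 (limma, adjusted p = 0.0156), and the adrenergic receptor gene Adra1b rose by 0.69 ± 0.16. When Riva-313 was left out 3 of these 7 called genes kept their call, and 4 did so without Riva-319, 7 without Cont_17 and 6 without Cont_19.

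Ion channel genes were called in 5 of 19 cases, 3 higher and 2 lower. Kcnv2, a modifier of potassium channels, read 3.76 and 3.44 in the rivaroxaban pair and 1.84 and 0.56 in the untreated pair and rose by 2.40 ± 0.40 (limma, adjusted p = 0.00992). Kcnj5, a subunit of the acetylcholine-gated potassium channel, rose by 1.37 ± 0.32, and by 0.90 without Cont_19. Its partner in that channel, Kcnj3, rose by 1.22 ± 0.32. None of 15 sarcomere genes was called by limma, and 1 had an unadjusted p under 0.05. Over all tested genes 8.47% were called, and this list is too short to be told from that share. Its median log2 difference was -0.16, and it was -0.35 without Cont_17 and -0.01 without Cont_19. Of the stress genes, Rcan1, a calcineurin inhibitor, fell by 1.43 ± 0.31 (limma, adjusted p = 0.0247), at 6.19 and 6.53 in the rivaroxaban pair and 7.48 and 8.10 in the untreated pair. The natriuretic peptide gene Nppa read 5.16 and 5.77 in the rivaroxaban pair and 5.77 and 6.66 in the untreated pair and was not called, with a difference of -0.75 ± 0.37 (limma, adjusted p = 0.209). The difference of Nppa was -0.44 without Riva-313 and -0.30 without Cont_19, and without Cont_17 it was -1.19 and called (limma, adjusted p = 0.0366). Nppb ranged from 5.06 in Cont_17 to 9.31 in Cont_19 and differed by -1.29 ± 1.07 (limma, adjusted p = 0.435); without Cont_19 its difference was 0.84, and without Cont_17 it was -3.41 and called (adjusted p = 0.00297, limma). Among the 6 called genes of these groups, 1 kept their call when Riva-313 was left out, 0 when Riva-319, 6 when Cont_17 and 3 when Cont_19 was left out.

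Of 26 tested genes of fatty acid uptake and oxidation 3 rose and none fell (11.5% called, against 8.47% of all tested genes). Slc27a1, a fatty acid transporter, measured 8.99 and 8.95 in the rivaroxaban pair and 8.07 and 8.12 in the untreated pair and rose by 0.88 ± 0.15 (limma, adjusted p = 0.0114), and its rivaroxaban values lay above the sham range of 7.85 to 8.30. Acot1, a thioesterase of acyl-CoA, read 6.73 and 7.10 in the rivaroxaban pair and 5.34 and 5.57 in the untreated pair and rose by 1.46 ± 0.35 (limma, adjusted p = 0.0335). Aqp7, a channel that admits glycerol, measured 5.04 and 5.22 in the rivaroxaban pair and 2.20 and 2.72 in the untreated pair and rose by 2.67 ± 0.25 (limma, adjusted p = 0.000998). Of these 4 called genes, 1 stayed called without Riva-313, 1 without Riva-319, 4 without Cont_17 and 2 without Cont_19.

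No tricarboxylic acid cycle enzyme among 18 and no respiratory chain subunit among 19 was called by limma. Over all tested genes 8.47% were called, and each list is too short to be told from that share. None of these genes had an unadjusted p under 0.05 (limma), and the median log2 differences of the lists were -0.05 and -0.09. Without Cont_19 these medians turned to 0.10 and 0.07, and without Cont_17 they were -0.19 and -0.20, with 3 and 2 genes called lower (limma). Of 15 mitochondrial carriers 1 rose and 1 fell (13.3% called, against 8.47% of all tested genes). Slc25a25, a carrier of ATP and magnesium, fell by 1.86 ± 0.27 (limma, adjusted p = 0.00567), at 3.05 and 3.24 in the rivaroxaban pair and 4.96 and 5.04 in the untreated pair. Slc25a42, which brings coenzyme A in, rose by 1.05 ± 0.19 (limma, adjusted p = 0.0134), at 7.13 and 7.01 in the rivaroxaban pair and 6.14 and 5.89 in the untreated pair. Of 22 genes of hypoxia and glycolysis 9.09% were called, close to the 8.47% of all tested genes. They were the phosphofructokinase gene Pfkp and the glucose transporter gene Slc2a1, which fell by 1.28 ± 0.24 and 1.04 ± 0.23. The number of these 4 genes that stayed called was 0 without Riva-313, 1 without Riva-319, 4 without Cont_17 and 4 without Cont_19.

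Cdkn1a, an inhibitor of the cell cycle, read 5.58 and 5.52 in the rivaroxaban pair and 7.91 and 9.57 in the untreated pair and fell by 3.19 ± 0.64 (limma, adjusted p = 0.0198). The metallothionein gene Mt2 measured 7.43 and 7.56 in the rivaroxaban pair and 9.65 and 10.62 in the untreated pair and fell by 2.64 ± 0.70 (limma, adjusted p = 0.0445). These belong to a list of 14 glucocorticoid-responsive genes, of which 4 fell and none rose, the others being the kinase gene Sgk1 and the receptor inhibitor gene Errfi1 with falls of 1.45 ± 0.38 and 1.16 ± 0.26, and that of Sgk1 was a difference of -0.89 without Cont_19. Among 19 Nrf2 antioxidant targets 3 fell and 1 rose: Txnrd1, a thioredoxin reductase, stood at 6.03 and 6.22 in the rivaroxaban pair and 7.91 and 7.95 in the untreated pair and fell by 1.80 ± 0.26 (limma, adjusted p = 0.00598), and Gstm1, a glutathione transferase, rose by 0.56 ± 0.12. Gclc, for the first step of glutathione synthesis, and the glutathione reductase gene Gsr fell by 1.32 ± 0.32 and 0.93 ± 0.18, and without Cont_19 the difference of Gclc was -0.68. Hspb1, a small heat shock protein, fell by 1.56 ± 0.36 and was the called gene of 16 cytosolic chaperones (6.25%, against 8.47% of all tested genes). Its difference without Cont_19 was -1.02. Calls among these 9 genes held in 0 without Riva-313, 1 without Riva-319, 9 without Cont_17 and 3 without Cont_19.

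Among 18 tested chaperones of the endoplasmic reticulum the rivaroxaban pair lay above the untreated pair in 12 and below it in none. Over all tested genes these shares were 28.1% and 27.4%. Of the 18, 2 were called higher (11.1% called, against 8.47% of all tested genes). Derl3, a factor of protein retrotranslocation, read 4.80 and 2.44 in the rivaroxaban pair and -1.10 and -0.51 in the untreated pair and rose by 4.43 ± 0.90 (limma, adjusted p = 0.0205). Sdf2l1, a cochaperone of Hspa5, measured 6.22 and 5.23 in the rivaroxaban pair and 3.98 and 3.46 in the untreated pair and rose by 2.01 ± 0.44 (limma, adjusted p = 0.0255), whereas Hspa5 differed by 0.85 ± 0.35 (0.49 without Riva-313) and was not called. Among 20 ribosome biogenesis factors the rivaroxaban pair lay below the untreated pair in 18 (against 27.4% of all tested genes), and 5 fell. Utp20, a processing factor of ribosomal RNA, stood at 4.49 and 4.49 in the rivaroxaban pair and 5.23 and 5.40 in the untreated pair and fell by 0.82 ± 0.15 (limma, adjusted p = 0.0133), and Rrp12, Nolc1, Polr1b and Noc4l fell by 1.19 ± 0.25, 1.13 ± 0.26, 0.78 ± 0.21 and 0.93 ± 0.22. In polyamine, amino acid and nucleotide metabolism 5 of 19 genes fell and none rose, led by the uridine kinase gene Uck2, at 6.13 and 6.41 in the rivaroxaban pair and 7.77 and 8.93 in the untreated pair, which fell by 2.08 ± 0.37 (limma, adjusted p = 0.0122). Odc1 and Srm, enzymes of polyamine synthesis, fell by 0.88 ± 0.23 and 1.06 ± 0.26, the transaminase gene Bcat1 by 1.32 ± 0.33 and the AMP deaminase gene Ampd3 by 1.41 ± 0.27. Leaving out Cont_19 brought the differences of Nolc1, Polr1b, Odc1 and Bcat1 to -0.67, -0.49, -0.57 and -0.82. When Riva-313 was left out 0 of these 12 called genes kept their call, and 1 did so without Riva-319, 12 without Cont_17 and 3 without Cont_19.

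Among called genes with the widest gaps, several are not covered in the paragraphs above. On the lower side, Lrp8, a receptor of apolipoprotein E and reelin, measured 0.91 and 1.76 in the rivaroxaban pair and 4.78 and 4.77 in the untreated pair and fell by 3.44 ± 0.50 (limma, adjusted p = 0.00574). Ch25h, which makes an oxysterol from cholesterol in activated macrophages, read -0.18 and -0.25 in the rivaroxaban pair and 2.77 and 3.16 in the untreated pair and fell by 3.18 ± 0.34 (limma, adjusted p = 0.00178). Sphk1, which makes sphingosine 1-phosphate, stood at 1.13 and 1.40 in the rivaroxaban pair and 3.93 and 6.62 in the untreated pair and fell by 4.01 ± 0.76 (limma, adjusted p = 0.0158), and its difference without Cont_19 was -2.66. AA467197, Gprc5a and Retnlg fell by 3.99 ± 0.42, 3.11 ± 0.69 and 3.72 ± 0.87. On the higher side, Plac9a measured 6.14 and 6.24 in the rivaroxaban pair and 3.78 and 3.31 in the untreated pair and had the smallest adjusted p of the genes named here, with a rise of 2.64 ± 0.17 (limma, adjusted p = 0.000101). Stmn2, a microtubule regulator of neurons, read 3.22 and 3.39 in the rivaroxaban pair and 0.51 and 0.08 in the untreated pair and rose by 3.02 ± 0.37 (limma, adjusted p = 0.00302). Pde11a, a phosphodiesterase of cyclic nucleotides, stood at 3.21 and 3.23 in the rivaroxaban pair and 0.86 and 0.38 in the untreated pair and rose by 2.60 ± 0.45 (limma, adjusted p = 0.0116), above the sham range of 1.72 to 2.38. Stum, AU021092, Akr1c14, Gstt2 and Atp8b5 rose by 3.43 ± 0.41, 3.11 ± 0.34, 2.68 ± 0.43, 2.46 ± 0.38 and 2.53 ± 0.43. Among the 14 called genes of these groups, 6 kept their call when Riva-313 was left out, 7 when Riva-319, 14 when Cont_17 and 12 when Cont_19 was left out.

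A wide gap did not always go with a call. Of the 270 genes higher by a gap over 1, 48 were not called, and of the 244 lower, 32 were not. The 3 widest of these on the higher side were Aox3, at 0.82 and 0.74 in the rivaroxaban pair and -1.42 and -1.85 in the untreated pair (difference 2.42 ± 0.69, limma adjusted p = 0.0555), Eps8l1 with 2.30 ± 0.98 and Kcnc4 with 2.07 ± 0.71. On the lower side they were Wfdc21, at -2.27 and -3.02 in the rivaroxaban pair and 0.19 and 0.49 in the untreated pair (difference -2.99 ± 0.97, limma adjusted p = 0.0791), Tmem125 with -2.60 ± 0.92 and Olr1 with -2.78 ± 0.81. Without Cont_17, Aox3 and Olr1 were called (limma, adjusted p = 0.033 and 0.0483). Eps8l1 also varied widely within the aPC pair, at -0.05 and 3.27.

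**Figure D4:**
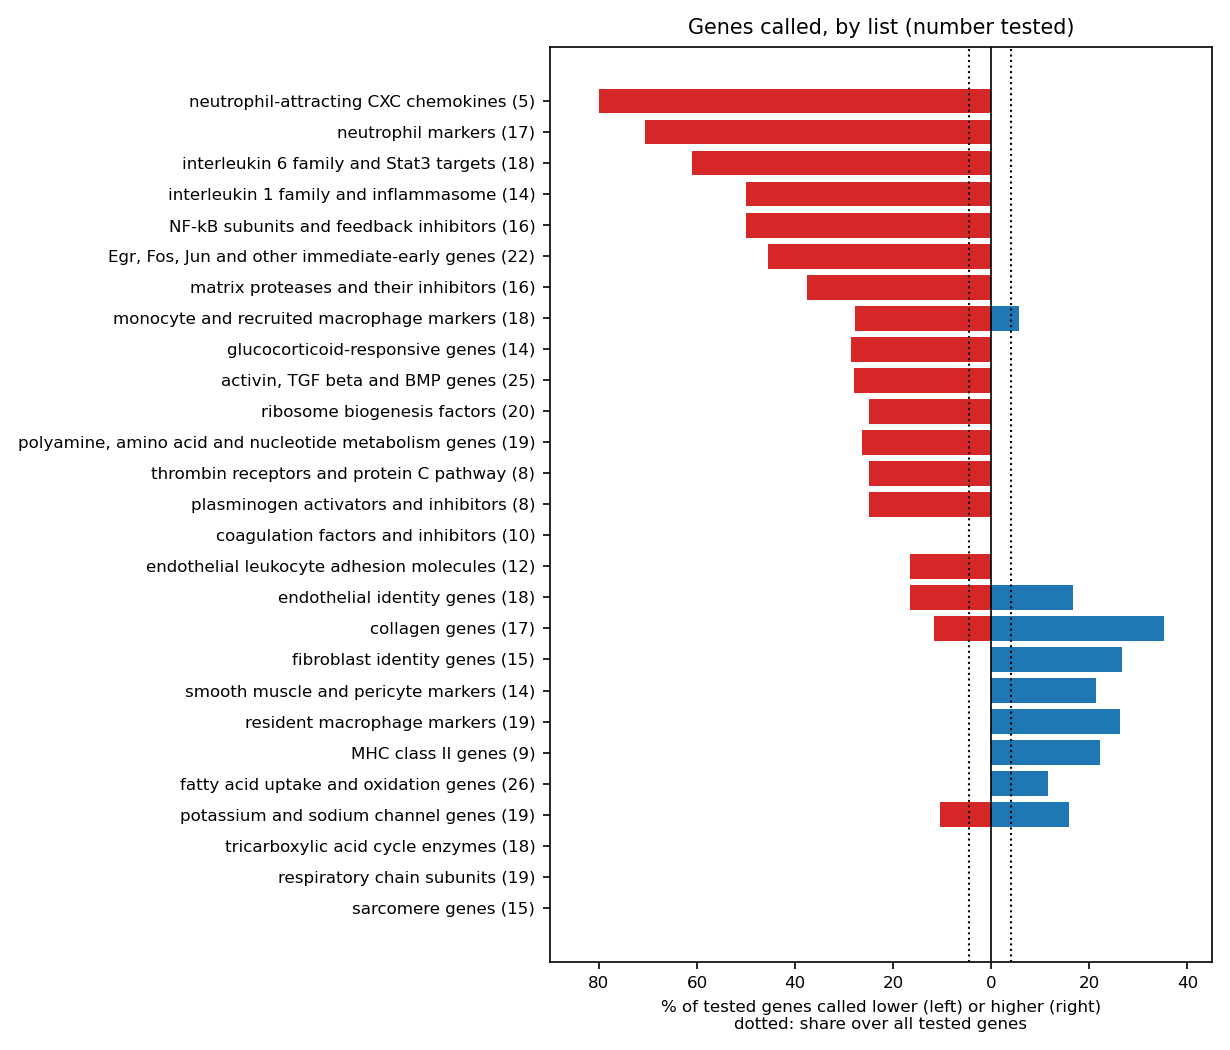
Bars give the percentage of tested genes in each list that were called lower (left, red) or higher (right, blue) with rivaroxaban, the number tested stands after the list's name, and dotted lines mark 4.45% lower and 4.02% higher over all tested genes. Neutrophil chemokines have 4 of 5 genes called lower, and the lists of the tricarboxylic acid cycle, the respiratory chain and the sarcomere at the foot have none. Each of those lists at the foot is too short to be told from the shares over all tested genes.

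The other groups were used to place the pairs of each called gene. Among the 603 genes called lower, the untreated pair lay above all 9 other libraries in 221 (36.7%, against 7.41% of all tested genes), and the rivaroxaban pair lay below all 9 in 159 (26.4%, against 4.19%). Among the 544 called higher, the untreated pair was below all 9 in 258 (47.4%, against 8.11%) and the rivaroxaban pair above all 9 in 160 (29.4%, against 5.11%). These shares use the same 4 libraries that made the calls, so nothing is read from their height. Grk5, Camk2b and Plac9a are of the first kind, and Sele, Slc27a1 and Pde11a of the second.

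Against sham, limma called no gene for rivaroxaban, and 761 genes had an unadjusted p under 0.05. With libraries weighted by spread the count of calls against sham was 198. The shared estimate of the spread includes the widely spread untreated pair, so standard errors between the other groups run large. The lack of calls against sham is therefore not read as equal levels. Against dabigatran, limma called 3161 genes (23.3%), 1271 higher (9.39%) and 1890 lower (14%) with rivaroxaban. Centring the libraries on their median moved the share of higher calls in that comparison from 40.2% to 53.9%, and quantile normalization moved it to 50.1%, so the split is not stable to scaling. This comparison of the 2 anticoagulants sets 3 mg/kg of rivaroxaban against 10 mg/kg of dabigatran and shares the rivaroxaban libraries with the one above. Cxcl2 was lower with rivaroxaban than with dabigatran by a log2 difference of -4.45 ± 0.49 (limma, adjusted p = 0.000522), Il6 by -4.60 ± 0.76 (adjusted p = 0.00271, limma) and Plaur by -3.67 ± 0.37 (adjusted p = 0.000423, limma). F2r differed by -0.16 ± 0.19 and Grk5 by -0.34 ± 0.28, and neither was called. Against aPC, limma called 208 genes (1.54%), 180 higher (1.33%) and 28 lower (0.207%). Counts against dabigatran were 919 without Riva-313, 1334 without Riva-319 and 939 without Dabi-202, and those against aPC were 11 without Riva-313, 1 without Riva-319, 14 without aPC-791 and 12 without aPC-792.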

How the data were processed

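Messenger RNA of mouse heart tissue was measured in 11 libraries. Per the labels, polyA RNA was taken from 500 ng of total RNA with a directional kit. The authors deposited log2 CPM values scaled with TMM factors (a trimmed mean of log ratios). Per the submitters' processing notes, the tools were edgeR and STAR (build mm10), after bcl2fastq, Trim Galore and FastQC. Counter, annotation, strand setting and gene filter: not given in the sources used here. Antisense and overlapping genes are therefore uncertain. The lowest value, -3.93, stands for no read in every library. Reads on listed genes numbered 26203566 to 36135006, and a level of 0 corresponds to 22.8 to 37.4 reads. Small added counts make differences of low genes too small.

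Two-sided limma-trend (limma 3.58.1, R 4.3.3) was fitted as 5 group means over all 11 libraries, with Benjamini-Hochberg adjustment over 13541 genes. On simulated data with this design the fit recovered 45 of 100 genes changed 2-fold and 84 of 100 changed 4-fold, and called 10 unchanged genes. The simulated noise of a gene had the same spread in all groups. The real untreated pair was spread more widely, so these rates do not carry over to the comparison of rivaroxaban with untreated. Named genes are the 12 called genes per direction with the widest gap and a mean of at least 1 (predicted genes left out), up to 4 called genes with the smallest p in each list, a set of inflammation, natriuretic and coagulation genes, and the 3 genes per direction with the widest gap among those not called. Other list members were named after their values were seen. Members and lists were chosen with earlier results of these data known, and no list was tested as a set. A list is described by its counts, which should be read against the shares called over all tested genes. Some genes are counted in more than 1 list, so the lists are not independent of each other. Il1r2 is in the neutrophil and interleukin 1 lists, and Bcl3 is in the interleukin 6 and NF-kB lists. List symbols not in the table were matched through GENCODE M21 identifiers. Alternatives covered filters, scaling, an added CPM, library weights, robust variances, the 4 libraries alone and each library left out. Some genes that the naming rule selects are not reported here, though they remain in the counts.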

Additional observations from a re-analysis of the deposited data

How the results depend on the processing

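The count of genes called between rivaroxaban and untreated hearts (1147, with 544 higher and 603 lower) stayed between 978 and 1190 under no filter, a stricter filter, 1 CPM added before the log, median centring, quantile normalization and robust variances. Fitted on the 4 libraries alone it was 0 in total, with 0 higher and 0 lower, and with library weights it was 37, with 19 higher and 18 lower. These weights were 0.242 for each untreated and 2.13 for each rivaroxaban library. Leaving out 1 library at a time gave 43 to 5029 calls, 17 to 2796 of them higher and 26 to 2233 lower. A left-out rivaroxaban or untreated library leaves 1 library in its group, which adds nothing to the shared estimate of the spread. Calls kept without Cont_17 or Cont_19 are thus no check on the untreated pair. Signs of the 1147 differences could not turn in these fits, as the pairs did not overlap. Library weights moved the count against sham from 0 to 198 and the count against aPC from 208 to 3219, and leaving out 1 library gave 0 against sham, 919 to 4840 against dabigatran and 1 to 1202 against aPC. Beyond the spread lost with a left-out library, the cause of these moves was not tested. Genes higher by a gap over 1 fell in number from 270 to 152 under the stricter filter and to 131 with 1 CPM added, as both act on low genes. Differences that were not called and turned sign when 1 library was left out ranged from -3.41 to 0.84 (Nppb), -1.30 to 0.89 (Ppbp), -0.74 to 0.29 (Cd163), -0.74 to 0.14 (Nfkb2), -0.63 to 0.36 (Tgfb1), -0.57 to 0.25 (Vcam1), -0.56 to 0.42 (Mrc1), -0.33 to 0.065 (Mki67), -0.17 to 0.16 (Il6st) and -0.13 to 0.16 (Dcn), and Il6st was 0.10 under quantile normalization. No paired analysis was possible because the groups share no replicate number. With 2 libraries a group, and at 22.8 to 37.4 reads for a level of 0, small differences of low genes could not be detected.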

Other observations

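Several further gene groups were measured in rivaroxaban and untreated hearts. Of 17 tested interferon-stimulated genes 2 rose and none fell (11.8% called, against 8.47% of all tested genes). In 10 the rivaroxaban pair lay above the untreated pair (against 28.1% of all tested genes). Oas2, an antiviral enzyme, read 4.93 and 5.21 in the rivaroxaban pair and 3.86 and 2.93 in the untreated pair and rose by 1.67 ± 0.36 on the log2 scale (limma, adjusted p = 0.0234). Of 14 complement genes Cd55, which protects cells from complement, was the called gene (7.14%, against 8.47% of all tested genes) and rose by 1.46 ± 0.34. In 11 of the 14 the rivaroxaban pair lay above the untreated pair (against 28.1% of all tested genes). Among 7 tested markers of Schwann cells and neurons 2 rose and 1 fell. Stmn2, given above, was among those that rose, and Uchl1, a ubiquitin hydrolase of neurons, fell by 1.16 ± 0.25 (limma, adjusted p = 0.025). Of 16 clock genes 12.5% were called, against 8.47% of all tested genes. Hlf, which encodes an output factor of the clock, rose by 1.13 ± 0.26. Cry1, a core repressor, fell by 1.53 ± 0.37, with a difference of -0.97 without Cont_19. No cell cycle gene among 17 was called by limma, against 8.47% of all tested genes, and the list is too short to be told from that share. Of these genes 1 had an unadjusted p under 0.05 (limma), and Mki67, the proliferation marker, differed by -0.13 ± 0.32. Without Cont_17 1 cell cycle gene was called lower, and the difference of Mki67 turned to 0.065 without Riva-313. Of these 8 called genes, 1 stayed called without Riva-313, 1 without Riva-319, 8 without Cont_17 and 3 without Cont_19.

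Among chemokines that act on cells other than neutrophils, 1 of 14 tested genes rose and 1 fell (14.3% called, against 8.47% of all tested genes). Cxcl12, which holds cells that carry Cxcr4, measured 7.75 and 7.87 in the rivaroxaban pair and 6.99 and 6.71 in the untreated pair and rose by 0.96 ± 0.15 (limma, adjusted p = 0.00721). Cxcl14 read 3.69 and 4.47 in the rivaroxaban pair and 6.32 and 6.15 in the untreated pair and fell by 2.15 ± 0.26 (limma, adjusted p = 0.00315). Of 5 mast cell markers 1 rose and 1 fell. The chymase gene Cma1 stood at 0.79 and 0.17 in the rivaroxaban pair and -0.92 and -1.26 in the untreated pair and rose by 1.57 ± 0.43 (limma, adjusted p = 0.0478), whereas Kit, the stem cell factor receptor, which other cells make too, measured 2.14 and 2.78 in the rivaroxaban pair and 4.58 and 4.37 in the untreated pair and fell by 2.02 ± 0.35 (limma, adjusted p = 0.0113). Of 17 genes of prostaglandins and other lipid mediators 1 rose and 2 fell (17.6% called, against 8.47% of all tested genes). Ptgs2, the inducible cyclooxygenase, read 0.03 and 0.14 in the rivaroxaban pair and 1.91 and 2.80 in the untreated pair and fell by 2.27 ± 0.54 (limma, adjusted p = 0.0311), and S1pr2, a receptor of sphingosine 1-phosphate, rose by 0.91 ± 0.20. The other gene that fell was the sphingosine kinase gene Sphk1, given above. The number of these 7 genes that stayed called was 1 without Riva-313, 2 without Riva-319, 7 without Cont_17 and 4 without Cont_19.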
